A study of Mus musculus with 12 samples.

Results

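Fibroblasts sorted from papilloma-associated skin of InvEE mice were compared with fibroblasts sorted from inflamed skin of InvEE mice. The comparison took the 4 arrays titled for papilloma and the 4 titled for InvEE skin, 8 of the 12 arrays in the series, and covered 18193 genes with 1 probe set each. All mice were 7-week-old males with the PDGFRα-H2B-eGFP reporter, a fluorescent histone that labels nuclei of cells expressing PDGF receptor alpha. InvEE mice in addition express constitutively active MEK1, a MAP kinase kinase, from an involucrin promoter in suprabasal epidermal cells, so both groups shared the transgene and it was not driven in the sorted cells' own lineage. The third group, 4 arrays of wild-type skin with the same reporter allele, entered only the normalization, the choice of probe set and the estimate of spread, and its levels are given beside the others as a reference. Back skin was freed of muscle and dermal fat, treated with trypsin so that the epidermis between the follicles could be removed, and digested with collagenases, and flow cytometry separated the GFP-positive cells. Their RNA went through 1 round of amplification and was hybridised to Affymetrix mouse arrays, 1 array per sample. The labels do not say whether a sample was 1 animal or a pool, or whether the papilloma-associated and inflamed samples came from the same mice, so p-values here reflect only how these arrays scatter, part of which may be technical.

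Dermal fibroblasts build and remodel the collagen-rich matrix of the skin, and a specialised group of them, the dermal papilla and dermal sheath, signals to the hair follicle. Around a growing epithelial tumour, fibroblasts are known to take on contractile and matrix-remodelling programmes and to release growth factors, chemokines and proteases. Inflamed skin also changes its fibroblasts, so setting one transgenic group against the other asks which genes differ between papilloma stroma and inflamed dermis when the epidermal transgene is present in both.

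The sorted cells carried fibroblast transcripts in both groups. Pdgfra, the gene that the reporter follows, had normalized log2 values of 10.43, 10.79, 11.26 and 11.01 on papilloma-associated arrays 1 to 4 and 10.35, 10.59, 10.88 and 10.66 on inflamed arrays 1 to 4, the order in which all arrays are listed here. The groups overlapped, and the difference of 0.25 ± 0.25 (SE) was not called. Col1a1, a chain of the main dermal collagen, lay near the top of the measured range on every array, at 14.46, 14.46, 14.42 and 14.55 and 14.29, 14.04, 14.46 and 14.4, with a difference of 0.18 ± 0.13 (SE, adjusted p = 0.385 in limma). Eif2s3y, a Y-linked gene that checks the stated sex, lay between 8.97 and 10.09 on the 8 arrays. Xist, the RNA that coats an inactive X, lay between 5.07 and 6.48 and was dim in both groups, though its difference of 0.71 ± 0.19 was called (adjusted p = 0.0468), a call lost in 8 of the 12 fits without 1 array. Map2k1, the mouse gene for MEK1, had values of 8.94, 8.2, 8.75 and 8.86 and 9.09, 9.08, 8.85 and 8.86 with no called difference (-0.28 ± 0.21, adjusted p = 0.388).

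The arrays of both groups differed in their controls. The poly-A spike controls, RNAs added before amplification, averaged 10.99, 10.56, 9.83 and 12.57 on the papilloma-associated arrays and 8.68, 8.19, 8.13 and 7.92 on the inflamed arrays, and 10.54 ± 1.27 (SD, n = 4) on the normal arrays. The spike levels of the compared groups did not overlap; their means were 2.76 apart (exact permutation test, two-sided, p = 0.0286, which no split of 4 and 4 arrays can undercut; 0.129 adjusted over 18 measures). The ribosomal protein genes also separated the groups, at 11.35 ± 0.20 against 11.84 ± 0.18 (exact permutation p = 0.0286, adjusted 0.129). The 3′ minus 5′ difference of Gapdh, which is larger in less intact RNA, was highest on papilloma-associated array 4 (3.76) and inflamed array 3 (3.37), and the group means differed by 0.65 (exact permutation p = 0.314). Correlations across genes, with 1 probe set each, lay between 0.893 and 0.971 within the papilloma-associated group, 0.961 and 0.989 within the inflamed group and 0.856 and 0.954 between them. The part of spike level and RNA integrity in the differences below was not tested beyond fits with each as a covariate, whose counts are given for each list that held calls. Because the spike level separates the compared groups, that fit cannot tell it apart from the group difference. The median SE over all genes was 0.327 with the spike covariate and 0.226 without. A call lost in that fit therefore cannot be assigned to spike level rather than lower precision.

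**Figure D1:**
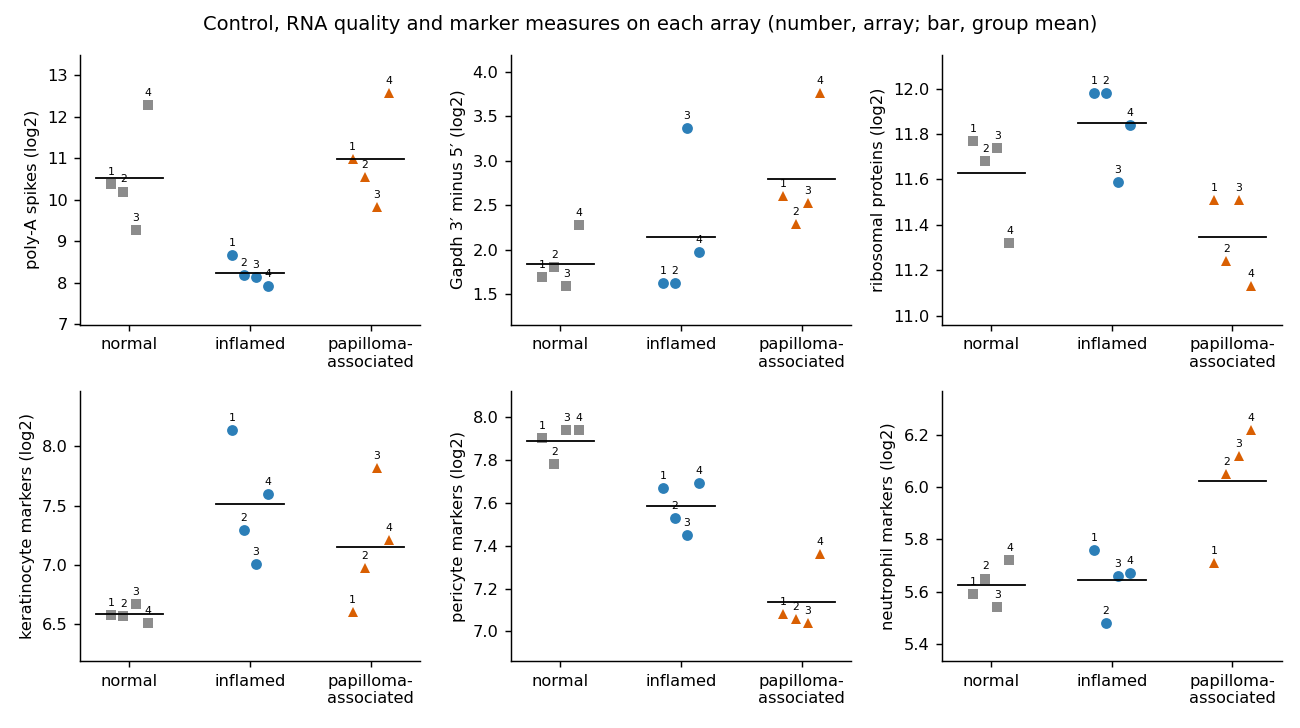
Control, RNA quality and marker measures on each of the 12 arrays, as mean log2 values (for Gapdh the 3′ minus 5′ difference); numbers are array numbers and bars group means of 4 arrays. The spike controls of the papilloma-associated arrays (9.83 to 12.57) lie above those of the inflamed arrays (7.92 to 8.68), and the ribosomal protein and pericyte levels lie below, while keratinocyte levels overlap.

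Of the 18193 genes, 1221 differed between the groups at an adjusted p under 0.05 (limma, Benjamini-Hochberg over all genes), or 6.71% of those tested. Papilloma-associated fibroblasts were higher in 668 of them (3.67% of genes tested) and lower in 553 (3.04%). A gene is called here when it passed that threshold. The difference was at least 1 on the log2 scale in 809 called genes. At an unadjusted p under 0.05 there were 4816 of the 18193 genes. The list counts below are to be read beside these counts over all genes. The 4 values of one group lay wholly above or below the 4 of the other in 3847 genes, or 21.1% of all, 2635 of them higher in the papilloma-associated group. The median difference over all genes was 0.12. When arrays were aligned on their medians alone, 922 genes were higher and 460 lower, and when they were aligned on the ribosomal protein genes 7067 were higher and 325 lower, with a median over all genes of 0.62, so the balance of directions depends on the scaling. With the spike level as a covariate 306 genes were called, 203 of them among the 1221, and with the Gapdh 3′ minus 5′ difference 778, 672 of them among the 1221. Leaving out inflamed array 1, 2 or 4 lowered the count to 578, 621 and 716. A named call held in each of the 12 fits that left out 1 array unless the text says otherwise. The Nfkbie call was lost without any 1 inflamed or normal array or papilloma-associated array 1 or 2. That of Plxna1 was lost without inflamed array 1, 2 or 4 or papilloma-associated array 1, 3 or 4. That of Rps4x was lost without inflamed array 1, 2 or 4. The count of a list is given again where leaving out 1 array moved it by over 1.5 times, other than by a gain of 1. In 308 called genes at least 1 group was dim, that is, its mean lay under 6.16, the value below which 40% of probe sets fell, and the size of such a difference depends on an unstated background correction. Of 664 called genes with other probe sets, 266 had another called the same way and 1 had another called the opposite way. In 398 no other probe set was called. Called genes named below whose other probe sets gave 0 calls include Adamts12, Cat, Ccl9, Cdkn1b, Col23a1, Col5a3, Creb3l2, Dusp10, Fbln2, Gstm1 and Ltbp1. The same holds for Maoa, Mcm7, Nfkbie, Per2, Phykpl, Rdh10, Retreg1, Rsad2, Slc8a3, Stc1, Tac1 and Tspan6. Averaging probe sets ended the calls of Gstm1, Mcm7, Per2, Rsad2 and Xist, among others.

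The largest difference was in a collagenase. Mmp13, which cleaves fibrillar collagen, had values of 10.38, 11.35, 9.77 and 9.96 in papilloma-associated and 2.9, 2.96, 3.12 and 3.03 in inflamed arrays, and 3.08, 2.89, 2.45 and 2.69 in normal arrays. All 4 papilloma-associated arrays were bright and the other 8 arrays were near the bottom of the scale, so the difference of 7.36 ± 0.29 (SE, 165-fold; adjusted p = 6.45e-08) is measured against a dim group. Prss35, a secreted protein of the serine protease family, stood at 12.8, 12.2, 11.51 and 10.4 against 5.37, 4.75, 7.59 and 5.09. Inflamed array 3 was its highest inflamed value and still lay well under the lowest papilloma-associated one; the difference was 6.03 ± 0.59 (adjusted p = 0.000138). Tac1, the precursor of the neuropeptide substance P, read 9.57, 8.81, 10.26 and 10.1 against 5.6, 5.76, 4.7 and 4.84, again a clear gap, with inflamed and normal arrays (5.54, 5.89, 6.21 and 5.02) at or near the dim limit and a difference of 4.46 ± 0.36 (adjusted p = 3.74e-05); its 1 other probe set was not called. Among the largest lower genes, Wif1, a secreted inhibitor of Wnt ligands, fell from 10.89, 10.94, 12.53 and 10.53 in inflamed to 4.7, 7.74, 7.17 and 4.07 in papilloma-associated arrays, a difference of -5.30 ± 1.14 (adjusted p = 0.017). Papilloma-associated arrays 1 and 4 were lowest for Wif1, and so was normal array 4 at 4.47 while the other normal arrays lay at 8.84 to 9.96.

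RefSeq's table for the GRCm38.p6 assembly held a promoter for 18 of the 30 genes with the largest differences, and 4 are shown because they belong to the 3 largest higher genes and the largest lower gene it holds. Each is the 250 bases before the transcription start, 5′ to 3′ on the gene's own strand, upstream of the gene's first exon. Capitals mark matches on either strand to the AP-1 motif TGANTCA, the site of Fos and Jun dimers, or to the TATA motif TATAAA.
Mmp13, chr9:7272264-7272513, plus strand: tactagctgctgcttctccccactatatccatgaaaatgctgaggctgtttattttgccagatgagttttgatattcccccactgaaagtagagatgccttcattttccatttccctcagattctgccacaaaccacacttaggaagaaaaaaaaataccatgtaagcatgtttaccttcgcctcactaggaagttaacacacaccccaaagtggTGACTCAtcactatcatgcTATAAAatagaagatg
Prss35, chr9:86743383-86743632, plus strand: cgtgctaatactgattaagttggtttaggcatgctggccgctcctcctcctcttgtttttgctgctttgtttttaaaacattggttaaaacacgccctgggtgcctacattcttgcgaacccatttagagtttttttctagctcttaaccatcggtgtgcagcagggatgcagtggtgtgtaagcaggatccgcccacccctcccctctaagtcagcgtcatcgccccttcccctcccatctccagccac
Tac1, chr6:7554811-7555060, plus strand: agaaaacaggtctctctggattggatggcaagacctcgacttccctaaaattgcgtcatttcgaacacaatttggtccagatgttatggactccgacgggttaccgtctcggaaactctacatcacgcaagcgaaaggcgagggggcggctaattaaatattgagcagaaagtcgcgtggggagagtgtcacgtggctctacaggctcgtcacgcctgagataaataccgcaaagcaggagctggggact
Wif1, chr10:121033754-121034003, plus strand: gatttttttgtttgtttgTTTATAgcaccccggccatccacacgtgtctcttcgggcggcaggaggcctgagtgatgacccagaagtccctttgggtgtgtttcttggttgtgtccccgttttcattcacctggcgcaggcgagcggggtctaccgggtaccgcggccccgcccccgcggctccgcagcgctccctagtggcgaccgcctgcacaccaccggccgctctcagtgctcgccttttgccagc
The Mmp13 promoter held 1 AP-1 match, 35 bases before the start, and 1 TATA match, 16 bases before it. The Wif1 promoter held a TATA match on the reverse strand 232 bases before the start, and the Prss35 and Tac1 windows held neither motif. Of the 32851 promoters in the table, 6.75% held an AP-1 match and 12.4% a TATA match, and the GC share of the 4 windows ran from 40.4% in Mmp13 to 62.8% in Wif1. These matches describe the sequence only.

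Most of the other genes among the 15 largest higher differences encode secreted or matrix proteins. Col12a1, a fibril-associated collagen, rose to 12.99, 13.28, 13.2 and 13.14 from 8.14, 8.15, 8.37 and 7.85, a difference of 5.03 ± 0.15 that its 3 other probe sets also called (adjusted p = 6.81e-09). The spread within each group was small beside that gap. Tnc, the matricellular glycoprotein tenascin C, stood at 13.42, 13.36, 13.26 and 12.92 against 8.88, 9.68, 7.71 and 9.07 (4.41 ± 0.53, adjusted p = 0.000533). Col7a1, which forms the anchoring fibrils under the epidermis, stood at 13.09, 13.08, 12.75 and 13.37 against 8.88, 9.57, 8.28 and 9.2 (4.09 ± 0.25, adjusted p = 5.85e-06). For both genes the normal arrays lay with or below the inflamed ones, at 5.38 to 8.02 for Tnc and 8.18 to 8.68 for Col7a1. Ucn2, a peptide of the corticotropin-releasing family, read 10.44, 11.17, 10.81 and 11.51 against 6.9, 6.57, 6.0 and 7.16 and differed by 4.33 ± 0.27 (adjusted p = 5.85e-06). The lipid enzymes Pla1a, a phosphatidylserine-specific phospholipase, and Pla2g7, which inactivates platelet-activating factor, rose by 4.31 ± 0.37 and 4.12 ± 0.48 (adjusted p = 5.51e-05 and 0.000417). P4ha3, a subunit of collagen prolyl hydroxylase, rose by 4.01 ± 0.28. Csgalnact1, which starts chondroitin sulfate chains, rose by 3.99 ± 0.38, and Bnc2, the zinc finger protein basonuclin 2, by 3.74 ± 0.29. The proteases Adam12 (4.26 ± 0.49) and Mmp10 (4.2 ± 0.5) belonged to the same 15 and were those whose call was lost with the spike level as a covariate.

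Krt6b, an epithelial keratin, was among the 15 as well, at 7.92, 8.0, 9.51 and 7.97 against 2.54, 2.75, 2.99 and 2.75 (5.59 ± 0.3, adjusted p = 2.05e-06). Its near-identical paralog Krt6a, named after its values were seen, read 7.11, 8.01, 9.84 and 10.55 and 7.19, 6.69, 6.35 and 6.82 and was not called (2.11 ± 0.59, adjusted p = 0.0531), although both of its other probe sets were called higher, and probe sets of these paralogs may share signal. The 23 measured keratinocyte markers averaged 6.60 to 7.82 on papilloma-associated, 7.01 to 8.14 on inflamed and 6.51 to 6.67 on normal arrays. Of these markers Krt15, a basal keratin, was called, and it was lower (6.25, 6.3, 5.9 and 6.62 against 9.04, 8.72, 7.81 and 8.14). That call made up 4.35% of the list, beside 6.71% over all genes. At an unadjusted p under 0.05 in limma, 2 of the 23 were higher and 7 lower. Dsp, a desmosome protein, ranged from 6.70 to 11.30 within the papilloma-associated group and was not called. The part of epidermal RNA in the keratin values was not tested. Since whole sorted samples were measured, fewer cells of a type and less RNA per cell cannot be told apart for this or any later gene.

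**Figure D2:**
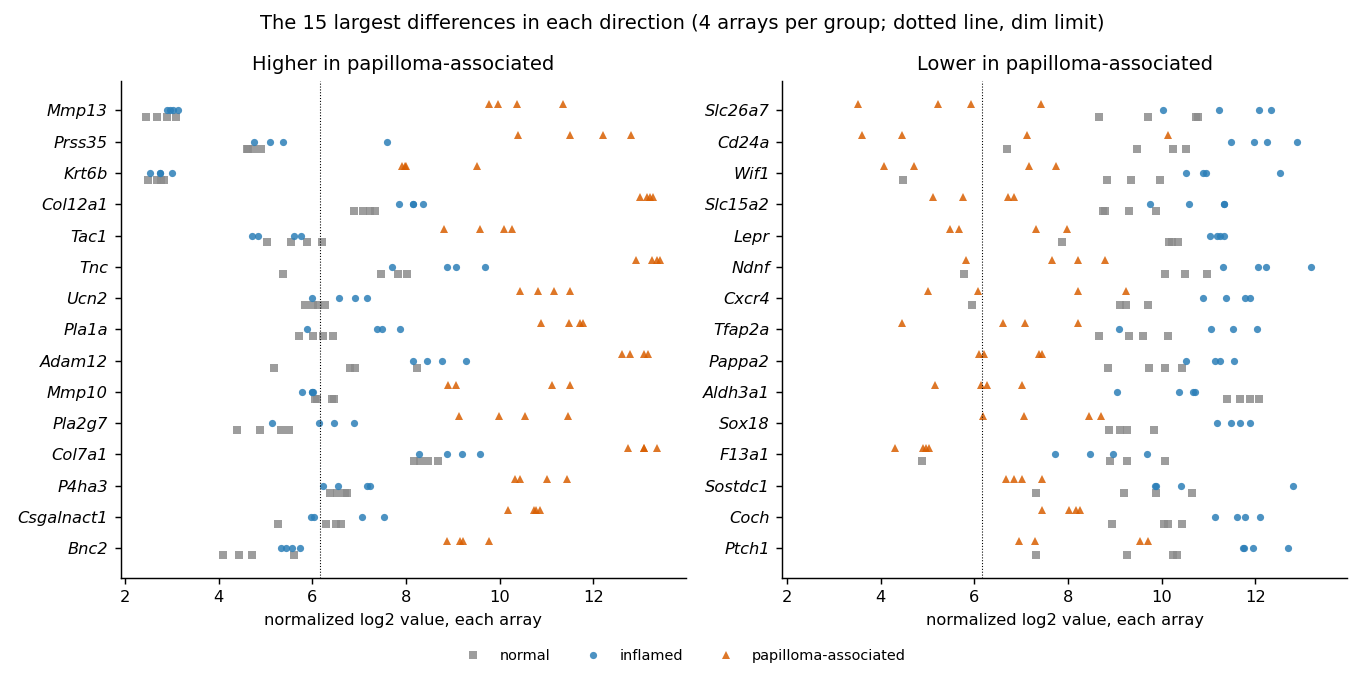
The 15 genes with the largest called differences in each direction whose groups did not overlap, with the normalized log2 value on each array (x axis) for normal, inflamed and papilloma-associated samples. Mmp13 and Krt6b sit at 2.54 to 3.12 on all inflamed arrays and at 7.92 to 11.35 on papilloma-associated arrays, and for the lower genes other than Aldh3a1 the mean of the normal arrays lies between those of the other groups.

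The fibrillar collagen genes that were called were higher. Of 11 measured fibrillar collagens 5 were called higher and 0 lower (7 higher and 0 lower at an unadjusted p under 0.05), with a median difference of 1.09 beside 0.12 over all genes. Col24a1, a minor fibrillar collagen, read 9.15, 7.97, 9.12 and 8.76 against 4.99, 6.05, 5.61 and 6.12, with normal arrays at 4.44, 4.77, 5.33 and 4.9. The difference was 3.06 ± 0.32 (adjusted p = 0.00018), with a dim inflamed group. The 3 chains of type V collagen, which sets fibril diameter, rose together: Col5a3 by 2.47 ± 0.28, Col5a2 by 1.11 ± 0.17 and Col5a1, named after its values were seen, by 1.09 ± 0.21. Col27a1 rose by 2.05 ± 0.35. Col1a2 and Col3a1, major chains of the dermis, differed by 0.14 ± 0.12 and 0.25 ± 0.13 and were not called (adjusted p = 0.46 and 0.235), although the other probe set of Col3a1 was called higher (0.80, adjusted p = 0.0218 in limma). Of the 5 fibrillar collagen calls 2 were kept with the spike covariate and 5 with the Gapdh covariate. Values of Col1a1 and Col1a2 lay between 14.04 and 14.55, close to the highest value deposited.

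Of the 17 fibril-associated, beaded and network collagens 5 were called higher and 0 lower (9 and 0 unadjusted; median 0.40). Col8a1, a short-chain network collagen, stood at 10.1, 11.11, 10.4 and 10.24 against 6.94, 7.27, 7.46 and 7.22 and 7.27, 7.57, 6.99 and 7.5 in normal arrays. The papilloma-associated values stood apart from all 8 others, and the difference was 3.24 ± 0.23 (adjusted p = 1.15e-05). The 3 chains of beaded type VI collagen rose by smaller amounts, Col6a1 (chosen after its values were seen) by 0.69 ± 0.13, Col6a2 by 0.77 ± 0.15 and Col6a3 by 0.75 ± 0.17; the Col6a3 call was lost without inflamed array 1 or papilloma-associated array 1. Of the 5 non-fibrillar collagen calls 3 were kept with the spike covariate and 5 with the Gapdh covariate. Of 23 enzymes of collagen maturation 5 were called higher and 1 lower (median 0.39). Loxl3, a lysyl oxidase that cross-links collagen, stood at 10.29, 10.21, 10.59 and 10.3 against 8.78, 8.36, 9.29 and 7.93 (1.76 ± 0.25, adjusted p = 0.00138), while Lox itself differed by 0.4 ± 0.27 and was not called (adjusted p = 0.347). Tll1, a procollagen C-proteinase, rose by 2.17 ± 0.31. Pcolce2, an enhancer of that proteinase, was lower at 9.97, 10.85, 9.83 and 6.85 against 12.43, 12.01, 12.12 and 12.86, with papilloma-associated array 4 far below the other arrays, and its call was lost without inflamed array 1 or 4. Of the 6 maturation enzyme calls 2 were kept with the spike covariate and 5 with the Gapdh covariate. In the maturation enzyme list, 5 higher calls became 3 without inflamed array 1 or 2 or papilloma-associated array 2, and 1 lower call became 0 without inflamed array 1 or 4.

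Basement membrane genes were called in both directions, 4 of 24 higher and 4 lower (median 0.14). Beside Col7a1, Nid2, the linker protein nidogen 2 (named after its values were seen), rose by 1.45 ± 0.36, a call lost without inflamed array 1, 2 or 4 or papilloma-associated array 1, 3 or 4. On the lower side, the laminin chain gene Lamc3 read 8.38, 7.79, 7.26 and 7.35 against 10.06, 10.14, 11.16 and 10.34 (-2.73 ± 0.45, adjusted p = 0.004). Col17a1, a collagen of basal keratinocyte hemidesmosomes, read 4.3, 5.04, 4.19 and 5.07 against 6.82, 7.16, 6.57 and 7.72 (-2.42 ± 0.28). The part of epidermal RNA in the Col17a1 values was not tested. Col15a1 was lower by 2.02, but that call was lost without inflamed array 1, 3 or 4 or papilloma-associated array 1 or 4. Of the 8 basement membrane calls 3 were kept with the spike covariate and 5 with the Gapdh covariate. In the basement membrane list, 4 lower calls became 2 without inflamed array 1, 3 or 4 or papilloma-associated array 1 or 4.

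Matricellular proteins, which modulate adhesion rather than bear load, held 7 higher and 3 lower calls among 26 (median 0.29). Thbs1 and Thbs2, thrombospondins that bind matrix and growth factors, rose by 3.31 ± 0.21 and 2.74 ± 0.22; Thbs1 read 11.77, 11.52, 10.98 and 11.76 against 8.27, 8.41, 8.1 and 8.01, so that no array of either group came near the other. Tnn, or tenascin W, stood at 12.64, 12.19, 12.06 and 12.48 against 9.65, 9.53, 7.03 and 8.63, with inflamed array 3 lowest (3.63 ± 0.57, adjusted p = 0.00307). Ccn4, a Wnt-induced secreted protein, rose by 2.8 ± 0.35, and Fn1, fibronectin, by 1.3 ± 0.23. Ccn2, connective tissue growth factor, rose by 1.52 ± 0.35, a call lost without inflamed array 1 or 2 or papilloma-associated array 2. Thbs2, Ccn4, Fn1 and Ccn2 were chosen after their values were seen. Sparcl1, a relative of osteonectin, went the other way at 6.44, 7.47, 6.96 and 6.68 against 9.84, 9.97, 10.18 and 9.66 (-3.02 ± 0.34, adjusted p = 0.000345). Of the 10 matricellular calls 5 were kept with the spike covariate and 7 with the Gapdh covariate. In the matricellular list, 3 lower calls became 1 without inflamed array 1, 2 or 4. Eln, the elastin gene, was lower in every papilloma-associated array, at 9.95, 9.9, 10.59 and 10.58 against 12.23, 12.13, 12.4 and 12.6 and 12.71, 12.44, 12.31 and 13.14 in normal arrays (-2.09 ± 0.23, adjusted p = 0.000268). Among the 16 elastic fibre and microfibril genes, 2 were called higher and 2 lower (median 0.03); Fbln2, a fibulin, rose by 1.68 ± 0.26 and Ltbp1, a latent TGF-beta binding protein, fell by 1.18, a call lost when arrays were aligned on ribosomal protein genes. Of the 4 elastic fibre calls 3 were kept with the spike covariate and 3 with the Gapdh covariate. In the elastic fibre list, 2 higher calls became 1 without inflamed array 1, 2 or 4 or papilloma-associated array 1, 2 or 3 or normal array 2 and 4 without inflamed array 3, and 2 lower calls became 4 without papilloma-associated array 2 or 3.

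Several matrix-degrading proteases rose. Of 16 measured matrix metalloproteinases 6 were called higher and 0 lower (12 and 0 unadjusted), with a median difference of 0.96. The mean level of the list was 9.0 to 9.76 on papilloma-associated arrays, 7.73 to 7.89 on inflamed arrays and 7.79 to 7.98 on normal arrays. Mmp10, a stromelysin, read 8.89, 11.11, 9.06 and 11.51 against 5.99, 5.77, 6.0 and 6.01; arrays 2 and 4 of the papilloma-associated group were higher than arrays 1 and 3. Mmp11, or stromelysin 3, stood at 11.52, 12.83, 12.56 and 12.09 against 10.11, 10.67, 8.49 and 9.97 (2.44 ± 0.45, adjusted p = 0.00738). Mmp9, a gelatinase, and Mmp14, a membrane-bound collagenase, both named after their values were seen, rose by 1.95 ± 0.27 and 1.02 ± 0.17. Mmp8, a collagenase of neutrophils, rose by 2.09 ± 0.53, but the call was lost without any of the 4 inflamed arrays, papilloma-associated array 2 or 4 or normal array 1 or 3. The 6 measured neutrophil markers averaged 5.71 to 6.22 on papilloma-associated and 5.48 to 5.76 on inflamed arrays, and their part in Mmp8 and Mmp9 was not tested. S100a9 was the 1 of 6 called (6.35, 7.41, 7.38 and 7.26 against 6.35, 5.68, 6.04 and 6.25), a call lost without inflamed array 2, 3 or 4 or papilloma-associated array 2, 3 or 4. Of the 6 metalloproteinase calls 1 was kept with the spike covariate and 5 with the Gapdh covariate. The call kept with the spike covariate was that of Mmp13.

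Among 28 Adam and Adamts proteases, 6 were called higher and 1 lower (median 0.14). Adam12 stood at 13.17, 13.09, 12.62 and 12.78 against 8.15, 8.76, 9.27 and 8.44 (adjusted p = 0.000421), with normal arrays at 5.17, 6.9, 6.81 and 8.23, so that the papilloma-associated arrays lay above all others. Adam19 rose by 2.54 ± 0.36 and Adamts12 by 2.26 ± 0.32. Adamts10 was lower by 2.48, with papilloma-associated array 4 at 5.35 and a call lost without inflamed array 1. Of the 7 Adam and Adamts calls 2 were kept with the spike covariate and 7 with the Gapdh covariate. In the Adam and Adamts list, 1 lower call became 0 without inflamed array 1. Inhibitors and plasminogen activators held 6 higher and 2 lower calls among 19 (median 0.20). Timp1, which inhibits metalloproteinases, stood at 11.74, 11.7, 12.24 and 10.9 against 8.98, 9.68, 8.95 and 8.96 (2.51 ± 0.3, adjusted p = 0.000512). Plat and Plau, the tissue-type and urokinase plasminogen activators, rose by 2.69 ± 0.26 and 1.99 ± 0.36, and Plaur, the urokinase receptor (chosen after its values were seen), by 1.37 ± 0.25. Tfpi2, a Kunitz-type serine protease inhibitor, read 9.48, 9.15, 9.13 and 7.62 against 4.73, 5.77, 6.46 and 6.6 (2.96 ± 0.45). The other probe set of Plat and that of Plau were not called. Of the 8 inhibitor and activator calls 3 were kept with the spike covariate and 7 with the Gapdh covariate. Cathepsins, lysosomal proteases, had 3 higher calls among 13: Ctsb by 0.99 ± 0.14, Ctsa by 0.82 ± 0.19 and Ctsl by 0.74 ± 0.2. These are less firm, since another probe set of Ctsb was called the opposite way (-0.88), and all 3 calls were lost when probe sets were averaged. The Ctsa call was also lost without inflamed array 1 or 2 or papilloma-associated array 1, and the Ctsl call without any array but inflamed array 4 and normal array 4. Of the 3 cathepsin calls 1 was kept with the spike covariate and 3 with the Gapdh covariate. In the cathepsin list, 3 higher calls became 1 without inflamed array 1 or 2 or papilloma-associated array 1.

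Many contractile and actin-binding genes were higher. Of 25 measured, 11 were called higher and 0 lower (16 and 0 unadjusted), all 25 differences were positive, and the median was 0.87 beside 0.12 over all genes. On array means the list separated all 3 groups, at 10.52 to 10.85 on papilloma-associated, 9.63 to 9.78 on inflamed and 8.89 to 9.18 on normal arrays. Tagln, the actin-binding protein transgelin, stood at 11.95, 11.96, 11.93 and 12.63 against 9.56, 10.16, 9.43 and 9.48 and 8.46, 7.65, 8.55 and 7.96 in normal arrays (2.46 ± 0.25, adjusted p = 0.000174). Actg2, a smooth muscle actin, read 10.15, 9.46, 9.44 and 9.88 against 7.85, 7.33, 6.95 and 7.06 (2.44 ± 0.31). Actn1, which cross-links actin filaments, rose by 2.48 ± 0.34 and Cnn1, calponin, by 2.29 ± 0.31. The tropomyosin Tpm4 and the non-muscle myosin Myh9, chosen after their values were seen, rose by 1.54 ± 0.26 and 0.87 ± 0.13. Acta2, the smooth muscle actin used to mark myofibroblasts, read 12.79, 12.68, 12.77 and 13.3 against 11.54, 11.35, 12.09 and 11.25. Its groups did not overlap, but the difference of 1.33 ± 0.54 was not called (adjusted p = 0.143), with normal arrays spread from 6.80 to 10.26. Markers of pericytes and smooth muscle, which share contractile genes, gave other calls: of 12 measured, 5 were called lower and 1, Cnn1, higher, and the list averaged 7.04 to 7.36 on papilloma-associated and 7.45 to 7.69 on inflamed arrays (exact permutation p = 0.0286, adjusted 0.129). Kcnj8 and Ndufa4l2, pericyte genes, were lower by 2.14 and 2.08. Of the 11 contractile calls 2 were kept with the spike covariate and 8 with the Gapdh covariate. Those kept with the spike covariate were the calls of Tagln and Actg2.

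Integrins, the receptors that tie cells to matrix, showed 7 higher calls and 1 lower among 19 (median 0.44). Itgb3, the beta 3 chain, stood at 11.22, 11.05, 10.6 and 11.47 against 8.55, 8.55, 8.76 and 8.77 (2.43 ± 0.25, adjusted p = 0.00018). Itga1, a chain of a collagen receptor, stood at 10.26, 10.31, 10.41 and 10.2 against 8.3, 8.06, 9.08 and 7.94 (1.95 ± 0.38, adjusted p = 0.0102). Itga4 rose by 2.82 ± 0.54 and Itgb1, the common beta chain, by 1.25 ± 0.25, though none of the 5 other probe sets of Itgb1 was called. Of the 8 integrin calls 2 were kept with the spike covariate and 6 with the Gapdh covariate. In the integrin list, 1 lower call became 0 without inflamed array 1, 2 or 4 or papilloma-associated array 1, 2 or 3 or normal array 2. Among the 14 hyaluronan genes limma called 0 (4 higher and 2 lower unadjusted); Cd44, the hyaluronan receptor, came closest with 10.63, 10.82, 10.55 and 12.41 against 9.16, 9.35, 9.81 and 9.09 (adjusted p = 0.0539), with 2 of its 3 other probe sets called higher. In the hyaluronan list, 0 higher calls became 2 without inflamed array 3.

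**Figure D3:**
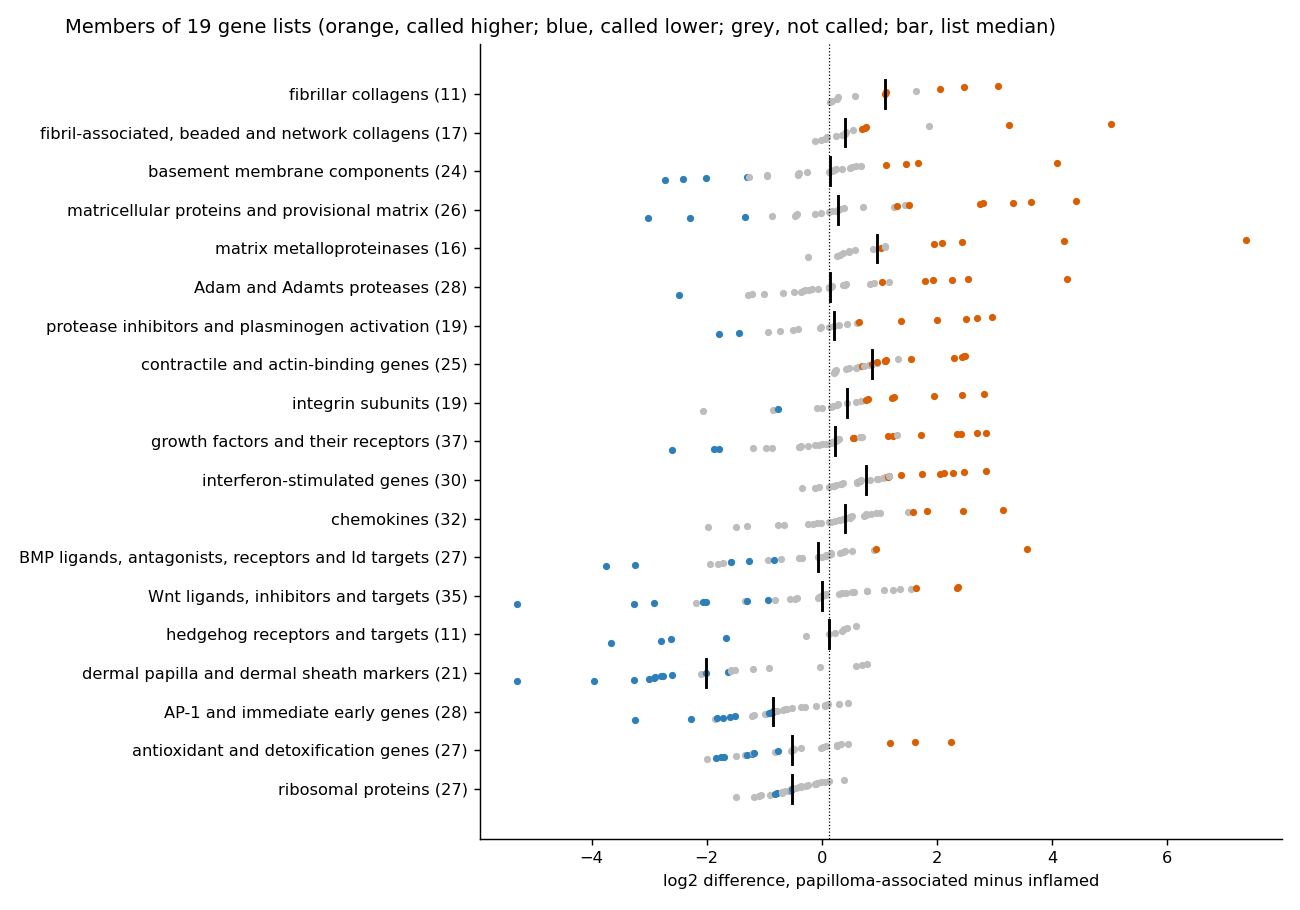
Log2 difference, papilloma-associated minus inflamed, for each measured member of 19 gene lists (number of members in brackets); orange and blue points were called higher and lower, grey points were not called, bars are list medians and the dotted line is the median of all genes (0.12). All 25 contractile members lie above 0 (median 0.87), and the dermal papilla and sheath list has the lowest median (-2.01) with 11 called members.

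Genes of the dermal papilla and dermal sheath formed the list with the lowest median, -2.01 beside 0.12 over all genes. Of 21 measured markers 11 were called lower and 0 higher (15 and 0 unadjusted). The mean of the list was 7.27 to 7.89 on papilloma-associated arrays, 8.99 to 10.44 on inflamed arrays and 7.06 to 8.26 on normal arrays, so the inflamed arrays stood above both other groups. Sox2, a transcription factor of dermal papillae, read 4.0, 3.8, 3.49 and 3.4 against 6.88, 6.37, 7.71 and 5.75, with normal arrays at 5.38, 5.3, 5.2 and 4.16 (-3.0 ± 0.38, adjusted p = 0.000752); its papilloma-associated group was dim. Sox18, another factor of the papilla, read 6.19, 8.44, 8.71 and 7.05 against 11.88, 11.67, 11.48 and 11.19 (-3.96 ± 0.47, adjusted p = 0.000457). Both genes kept the groups apart on every array. Alx4, a homeobox gene, and Corin, a papilla protease, were lower by 2.76 and 2.9, and Acan, the proteoglycan aggrecan of the sheath, by 1.63. These last 3 were named after their values were seen, inflamed array 3 was highest for Alx4 and Corin (12.32 and 9.74), and the Corin call was lost without inflamed array 4 or papilloma-associated array 1 or 4. Wif1, Rspo3, Lef1, Notum, Hhip and Fgf7, also called, stand in the signalling lists below as well. Inflamed array 3 had the highest list mean (10.44), with the other inflamed arrays at 8.99 to 9.44. Of the 11 calls, 10 were kept without inflamed array 1, 11 without inflamed array 2 and 10 without inflamed array 4. Of the 11 papilla and sheath calls 1 was kept with the spike covariate and 10 with the Gapdh covariate. The call kept with the spike covariate was that of Notum.

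Wnt pathway genes were called in both directions, 3 higher and 7 lower among 35 (median 0.01). Rspo3, an R-spondin that amplifies Wnt signals, read 5.52, 5.99, 6.36 and 5.47 against 8.95, 8.39, 10.73 and 8.31 (-3.26 ± 0.64, adjusted p = 0.0109), though its other probe set was not called. Lef1, a nuclear effector and target of the pathway, read 7.64, 7.51, 7.9 and 8.5 against 10.94, 11.11, 10.82 and 10.32 (-2.91 ± 0.41, adjusted p = 0.00154). Notum, a secreted Wnt deacylase, was lower by 2.01 and Frzb, a secreted frizzled-related inhibitor, by 2.06, the latter call lost without inflamed array 4 or papilloma-associated array 1 or 2. The 3 higher genes were also secreted. Dkk3, a Dickkopf family protein, stood at 12.42, 12.79, 12.85 and 13.0 against 10.61, 10.89, 9.5 and 10.69 (2.34 ± 0.29, adjusted p = 0.000664), and Wnt4, a ligand, at 9.24, 9.35, 8.18 and 9.38 against 7.57, 7.3, 7.22 and 7.5 (1.64 ± 0.28). Sfrp2 rose by 2.35 ± 0.58, with inflamed array 3 at 12.08 near the papilloma-associated values, and that call was lost without inflamed array 1, 2 or 4 or papilloma-associated array 1, 2 or 4. Notum, Frzb, Dkk3 and Wnt4 were chosen after their values were seen. Of the 10 Wnt pathway calls 1 was kept with the spike covariate and 8 with the Gapdh covariate.

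BMP signalling held 2 higher and 5 lower calls among 27 genes (median -0.07), and ligand, antagonists and targets are given apart. The ligand Bmp4 fell to 8.22, 7.87, 8.44 and 7.99 from 11.63, 11.52, 11.19 and 11.14, with normal arrays at 11.43, 11.37, 11.2 and 10.38, which are near the inflamed values (-3.24 ± 0.24, adjusted p = 1.58e-05). The antagonist Grem1 stood at 11.63, 12.48, 11.86 and 12.34 against 8.88, 8.98, 7.3 and 8.93, with 3 of 4 normal arrays between 10.33 and 10.84 (3.56 ± 0.45, adjusted p = 0.000732). Another antagonist, Sostdc1, moved the opposite way, at 7.44, 6.67, 6.84 and 7.02 against 10.42, 9.88, 12.8 and 9.86. Id genes, which BMP receptors induce, were lower: Id1 read 7.44, 7.3, 7.39 and 7.6 against 8.94, 9.34, 9.12 and 8.64 (-1.58 ± 0.23, adjusted p = 0.00159), and Id2 and Id3, named after their values were seen, were lower by 1.27 and 0.84, the Id3 call being lost when arrays were aligned on ribosomal protein genes. Of the 7 BMP calls 3 were kept with the spike covariate and 7 with the Gapdh covariate. In the BMP list, 2 higher calls became 1 without inflamed array 1, 2, 3 or 4 or papilloma-associated array 1, 2 or 3 or normal array 1, 2 or 3. Those kept with the spike covariate were the calls of Bmp4, Grem1 and Id3. TGF-beta and activin genes gave 3 higher and 2 lower calls among 27 (median -0.09). Pmepa1, a TGF-beta target that feeds back on the receptor, stood at 13.08, 12.99, 13.06 and 13.1 against 11.25, 11.57, 10.92 and 11.3 and 10.4, 10.19, 10.62 and 10.34 in normal arrays (1.8 ± 0.16, adjusted p = 5.51e-05). Bambi, a decoy receptor, was lower at 5.83, 5.76, 7.06 and 6.73 against 9.14, 9.19, 10.41 and 8.91 (-3.07 ± 0.39). Tgfb3 and Inhbb, ligands, rose by 1.45 ± 0.34 and 1.83 ± 0.48, and both calls were lost without any 1 of the 4 inflamed arrays, that of Inhbb also without any papilloma-associated array or normal array 2. Of the 5 TGF-beta and activin calls 2 were kept with the spike covariate and 3 with the Gapdh covariate. In the TGF-beta and activin list, 3 higher calls became 1 without inflamed array 1, 2, 3 or 4.

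Hedgehog pathway genes included 4 lower calls and 0 higher among 11 (4 lower and 1 higher unadjusted) and a median of 0.12, the same as over all genes. Ptch1, Gli1 and Hhip are themselves induced by hedgehog signalling. Ptch1 read 6.96, 9.71, 9.53 and 7.29 against 11.76, 11.96, 12.7 and 11.73 (-3.66 ± 0.74, adjusted p = 0.0123). Gli1, a transcription factor and target, read 7.86, 8.95, 8.17 and 7.6 against 10.61, 10.81, 10.97 and 10.66 (-2.62 ± 0.43, adjusted p = 0.00404), and no array of either group crossed into the other. Hhip, which sequesters hedgehog ligands, was lower by 2.8, with inflamed array 3 at 12.16 and a call lost without inflamed array 1 or papilloma-associated array 1. The Gli2 difference of -1.66 ± 0.45 was called, and lost without any 1 of the 8 compared arrays or normal array 1, 2 or 3. Of the 4 hedgehog calls 0 were kept with the spike covariate and 3 with the Gapdh covariate. In the hedgehog list, 4 lower calls became 2 without inflamed array 1 or papilloma-associated array 1. Notch genes had 2 lower calls and 0 higher among 15 (7 and 0 unadjusted; median -0.74), led by Hey1, a target gene, at 6.53, 7.81, 7.54 and 7.09 against 10.09, 10.3, 10.53 and 9.12 (-2.77 ± 0.45, adjusted p = 0.00393). Of the 2 Notch calls 0 were kept with the spike covariate and 1 with the Gapdh covariate. In the Notch list, 2 lower calls became 1 without inflamed array 1 or 2 or papilloma-associated array 1, 2 or 4 and 5 without inflamed array 3.

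**Figure D4:**
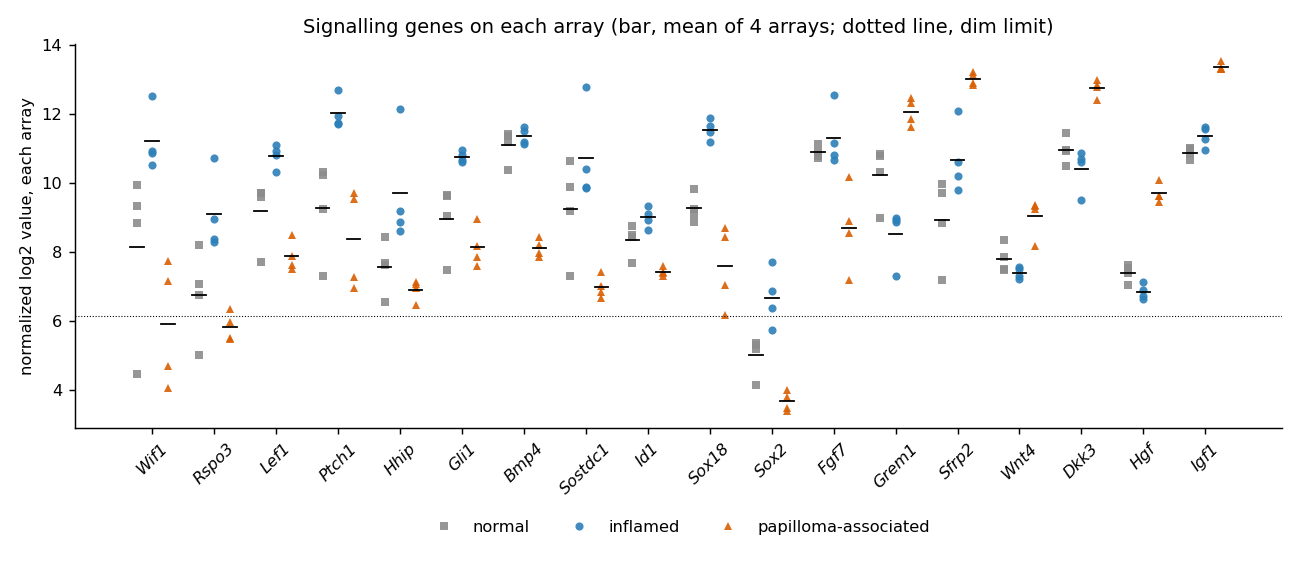
Normalized log2 values of 18 signalling genes on each array (points, bars for the mean of 4 arrays, dotted line for the dim limit of 6.16). For Wif1, Rspo3, Lef1, Ptch1, Gli1, Sox18 and Sox2 every inflamed array lies above the arrays of both other groups, and for Grem1, Sfrp2, Dkk3, Hgf and Igf1 every papilloma-associated array does.

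Growth factor genes were called higher in 9 of 37 cases and lower in 3 (median 0.23). Hgf, the ligand of the Met receptor on epithelial cells, stood at 10.1, 9.63, 9.62 and 9.46 against 7.14, 6.73, 6.63 and 6.9 and 7.53, 7.04, 7.62 and 7.4 in normal arrays (2.85 ± 0.19, adjusted p = 6.79e-06), though neither of its 2 other probe sets was called. Igf1, a growth factor for many cell types, stood at 13.33, 13.32, 13.32 and 13.53 against 11.57, 10.96, 11.28 and 11.62, a narrow band in each group (2.02 ± 0.17, adjusted p = 3.74e-05, also called on its 3 other probe sets). Ereg and Nrg1, ligands of the EGF receptor family, read 6.4, 6.81, 5.59 and 7.93 and 6.3, 6.28, 5.45 and 6.24 against 4.25, 3.66, 3.87 and 4.17 and 4.16, 4.34, 4.67 and 4.25, rises of 2.7 ± 0.38 and 1.71 ± 0.2. Ereg was dim in the inflamed group and Nrg1 in both groups. The calls of both genes were lost when values under the dim limit were raised to it. The PDGF ligands Pdgfd and Pdgfc rose by 2.41 ± 0.43 and 2.35 ± 0.36, and the receptor Pdgfrb by 0.55 ± 0.12, the last call lost without inflamed array 1, 2 or 4. Fgf7, the keratinocyte growth factor, was lower at 8.9, 8.57, 10.18 and 7.19 against 11.17, 10.67, 12.55 and 10.82 (-2.6 ± 0.54, adjusted p = 0.0152), where papilloma-associated array 3 came close to the inflamed range. Nrg1 and Pdgfc were chosen after their values were seen. Of the 12 growth factor calls 3 were kept with the spike covariate and 10 with the Gapdh covariate. The pappalysins, proteases that free IGF from its binding proteins, split: Pappa2 fell to 7.38, 6.1, 7.44 and 6.2 from 11.54, 11.25, 11.13 and 10.52, and Pappa rose by 1.75 ± 0.4, a call lost without inflamed array 1, 2 or 4. The 16 measured IGF genes held 4 higher calls and 1 lower (median 0.12). Of the 5 IGF calls 2 were kept with the spike covariate and 2 with the Gapdh covariate. In the IGF list, 4 higher calls became 1 without inflamed array 1, 2 or 4.

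Among 32 chemokines, which recruit immune cells, 4 were called higher and 0 lower (8 higher and 3 lower unadjusted; median 0.40). Cxcl5, which attracts neutrophils, read 4.97, 7.67, 7.09 and 5.0 against 3.84, 3.69, 3.75 and 3.63 (2.45 ± 0.51, adjusted p = 0.0147), with a dim inflamed group. Ccl7 and Ccl9, monocyte chemokines, rose by 1.82 ± 0.41 and 1.58 ± 0.32; the Ccl7 call was lost without inflamed array 1 or papilloma-associated array 1. Ccl12 read 8.47, 8.53, 7.86 and 4.17 against 4.09, 4.19, 4.25 and 3.92, so that papilloma-associated array 4 lay among the inflamed values, and its call was lost without any of 6 arrays: inflamed 1, 2 or 4 or papilloma-associated 1, 2 or 3. Markers of macrophages, which make such chemokines, averaged 6.31 to 6.46 on papilloma-associated and 5.94 to 6.58 on inflamed arrays, and limma called 0 of 12 (1 higher and 1 lower unadjusted). Of the 4 chemokine calls 1 was kept with the spike covariate and 4 with the Gapdh covariate. In the chemokine list, 4 higher calls became 2 without papilloma-associated array 1, and 0 lower calls became 2 without normal array 4.

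Among 40 cytokine and receptor genes 5 were called higher and 2 lower (median 0.27). Tnfrsf11b, osteoprotegerin, a decoy receptor for RANKL, stood at 8.84, 9.31, 9.36 and 9.09 against 6.55, 6.71, 7.38 and 6.43 (2.39 ± 0.21, adjusted p = 5.51e-05). Il1r2, the decoy receptor of interleukin 1, fell to 7.78, 8.2, 8.41 and 6.63 from 10.2, 9.38, 9.96 and 10.47, with normal arrays higher still at 11.13, 11.33, 11.16 and 10.74 (-2.25 ± 0.35, adjusted p = 0.00303). Il6 itself scattered within both groups, at 4.36, 6.78, 6.28 and 3.05 and 5.49, 7.44, 5.61 and 8.05, and was not called (adjusted p = 0.301). Of the 7 cytokine and receptor calls 1 was kept with the spike covariate and 4 with the Gapdh covariate. In the cytokine and receptor list, 5 higher calls became 2 without inflamed array 1 or 2, and 2 lower calls became 1 without inflamed array 1, 2 or 4 or papilloma-associated array 1 or 4 and 4 without papilloma-associated array 2. Of 22 NF-kappaB feedback and target genes 1 was higher and 3 lower (median -0.03). Saa3, an acute-phase serum amyloid, stood at 8.42, 10.32, 9.86 and 10.6 against 6.58, 6.43, 6.77 and 6.61 (3.2 ± 0.38, adjusted p = 0.00049), and Icam1, an adhesion receptor for leukocytes, fell to 8.11, 8.22, 9.91 and 7.4 from 11.36, 11.55, 10.41 and 11.95 (-2.91 ± 0.48, adjusted p = 0.00408). Ptgs2, the inducible prostaglandin synthase, rose by 2.39 ± 0.57, but papilloma-associated array 3 (6.48) lay within the inflamed values, and the call was lost without any 1 inflamed array or papilloma-associated array 1, 2 or 4. Of the 4 NF-kappaB calls 0 were kept with the spike covariate and 2 with the Gapdh covariate. In the NF-kappaB list, 3 lower calls became 1 without inflamed array 1, 2 or 4 or papilloma-associated array 1.

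Interferon-stimulated genes averaged higher on 3 of the 4 papilloma-associated arrays. Of 30 measured 10 were called higher and 0 lower (18 and 0 unadjusted; median 0.76). The list averaged 8.45, 8.69 and 8.45 on papilloma-associated arrays 1 to 3 and 7.32 on array 4, against 7.14 to 7.44 on inflamed and 7.60 to 7.81 on normal arrays, so array 4 lay within the inflamed range. Ifit1, an antiviral effector, read 10.25, 10.24, 10.21 and 9.29 against 6.73, 7.57, 6.79 and 7.51 (2.85 ± 0.28, adjusted p = 0.000126), with array 4 lowest in its group. Rtp4 read 10.17, 10.72, 9.96 and 10.16 against 7.87, 8.02, 8.53 and 8.14, all 4 arrays alike (2.11 ± 0.19, adjusted p = 7.61e-05). Irgm1 and Gbp3, interferon-induced GTPases, rose by 2.28 ± 0.46 and 2.47 ± 0.61, the Gbp3 call lost without any 1 inflamed array or papilloma-associated array 1, 2 or 3. Oasl2 and Rsad2, named after their values were seen, rose by 1.74 ± 0.41 and 2.04 ± 0.55, and both calls were lost without inflamed array 1, 2 or 3 or papilloma-associated array 1 or 2, that of Rsad2 also without inflamed array 4 or normal array 1, 2 or 3 and that of Oasl2 also without papilloma-associated array 3. Among 13 MHC class I genes limma called 0 (1 higher and 0 lower unadjusted). Of the 10 interferon-stimulated calls 3 were kept with the spike covariate and 7 with the Gapdh covariate. In the interferon-stimulated list, 10 higher calls became 5 without inflamed array 1 or 2 and 6 without inflamed array 3 or papilloma-associated array 2. Without papilloma-associated array 4, 9 of the 10 were kept, and without inflamed array 4 6 were.

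Several immediate early genes, which cells switch on within minutes of a stimulus, were lower. Of 28 measured 10 were called lower and 0 higher (14 and 0 unadjusted), with a median of -0.85. Fos read 11.39, 11.55, 11.49 and 11.89 against 13.22, 13.15, 13.0 and 13.36 and 13.17, 12.83, 13.14 and 12.63 in normal arrays (-1.6 ± 0.17, adjusted p = 0.000209). Jun, its partner in AP-1, read 12.06, 12.01, 12.12 and 12.11 against 13.18, 13.06, 12.52 and 13.15 (-0.9 ± 0.16), where inflamed array 3 was lowest of its group. Atf3, a stress-induced factor, stood at 7.8, 6.35, 7.45 and 6.12 against 10.2, 10.35, 8.8 and 11.32 (-3.24 ± 0.58, adjusted p = 0.00635), and Fosb and Klf2 were lower by 1.71 and 1.51. Klf4, Maff and Egr1 were lower by 2.28, 1.82 and 0.93, with calls that were lost without inflamed array 1, 2 or 4, that of Maff also without any papilloma-associated array or normal array 1 or 2 and that of Egr1 also without inflamed array 3, papilloma-associated array 1, 2 or 3 or normal array 1 or 2. Fos, Jun, Klf2 and Egr1 were chosen after their values were seen. The list averaged 9.66 to 9.99 on papilloma-associated arrays, 10.90 to 11.01 on inflamed arrays 1, 2 and 4 and 9.98 on inflamed array 3, the inflamed array with the highest Gapdh 3′ minus 5′ difference. Of the 10 immediate early calls 1 was kept with the spike covariate and 5 with the Gapdh covariate. In the immediate early list, 10 lower calls became 5 without inflamed array 1, 2 or 4 and 6 without normal array 2. The call kept with the spike covariate was that of Fos, and 6 calls were kept when arrays were aligned on ribosomal protein genes. Tissue dissociation is known to induce these genes, and its part was not tested. Feedback genes of the MAP kinase pathway, which the epidermal transgene activates in another cell type, had 1 lower call among 17 and 0 higher (2 lower and 2 higher unadjusted; median -0.01), Dusp10, a phosphatase of stress kinases (-1.41 ± 0.24). The MAP kinase feedback call, 5.88% of its list beside 6.71% over all genes, was lost with the spike covariate and kept with the Gapdh covariate.

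**Figure D5:**
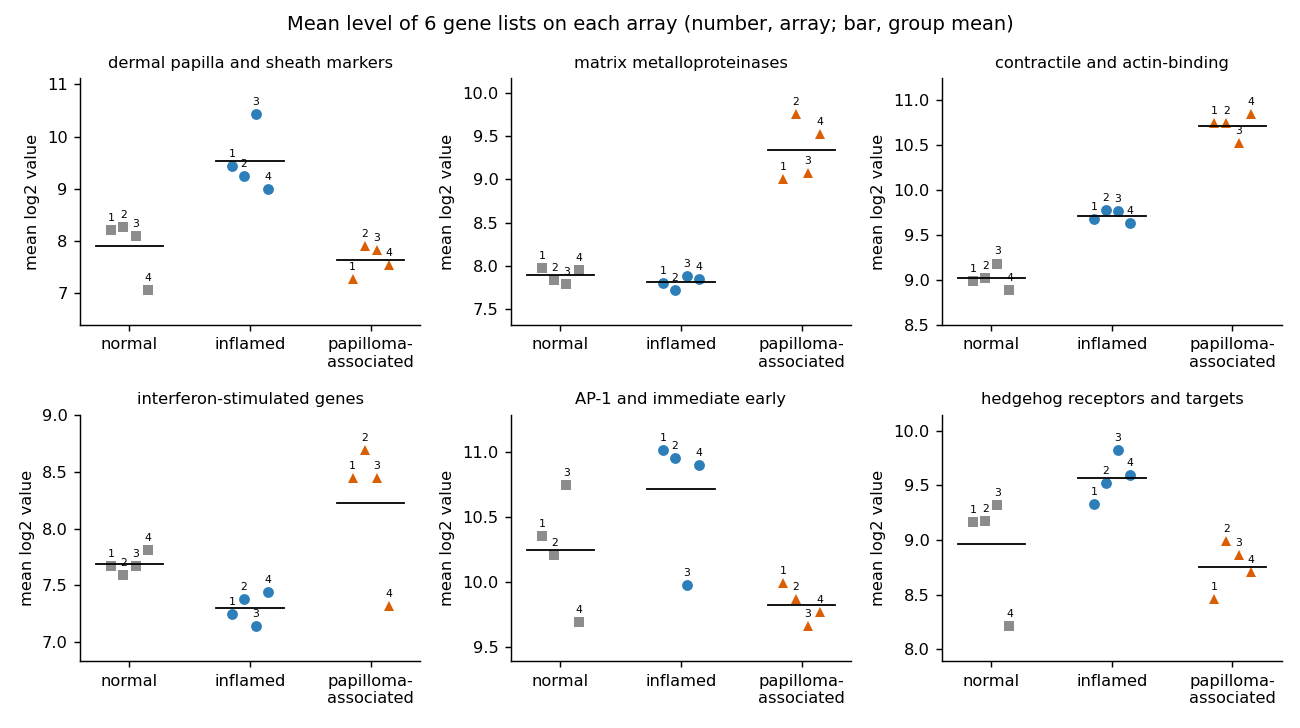
Mean normalized log2 level of 6 gene lists on each array (points numbered by array, bars for group means). Dermal papilla and hedgehog genes are highest on the inflamed arrays, metalloproteinase and contractile genes on the papilloma-associated arrays, papilloma-associated array 4 lies apart for interferon-stimulated genes (7.32), and inflamed array 3 for immediate early genes (9.98).

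Of 38 cell cycle genes 3 were called higher and 3 lower (median -0.22), with inhibitors on both sides. Cdkn2a, which encodes p16 and Arf, read 8.55, 8.22, 8.03 and 9.21 against 6.62, 6.17, 6.23 and 6.16 (2.21 ± 0.24, adjusted p = 0.000303), and its neighbour Cdkn2b, which encodes p15, read 9.56, 9.57, 9.7 and 9.35 against 7.55, 7.19, 7.28 and 7.49 (2.17 ± 0.24, adjusted p = 0.000303). On both genes every papilloma-associated array lay above every inflamed and normal array. Ccnd2, a D-type cyclin, also rose, by 1.62 ± 0.32, with 5 of its 6 other probe sets called, and Mcm7, a replication helicase subunit, was lower by 1.17, a call lost without inflamed array 1, 2 or 4 or papilloma-associated array 1 or 4. Cdkn1b, the inhibitor p27, chosen after its values were seen, was lower (-0.94 ± 0.18, adjusted p = 0.00849), a call lost with the spike covariate and when arrays were aligned on ribosomal protein genes. The calls of Cdkn2a and Cdkn2b were kept with the spike covariate. Of the 6 cell cycle calls 2 were kept with the spike covariate and 4 with the Gapdh covariate. In the cell cycle list, 3 lower calls became 1 without inflamed array 1 or 2 or papilloma-associated array 1 or 4.

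Metabolic and stress genes were mostly lower where called. Adipogenic genes had 4 lower calls and 1 higher among 25 (median -0.40): Cebpa, a factor of adipocyte differentiation, fell to 8.69, 7.13, 8.22 and 6.15 from 11.06, 11.06, 10.69 and 10.45 (-3.27 ± 0.49, adjusted p = 0.00224), Zfp423, a factor of adipocyte precursors, was lower by 2.12 and Fabp4, a fatty acid carrier, by 3.07, the last call lost without inflamed array 1. Of the 5 adipogenic calls 0 were kept with the spike covariate and 3 with the Gapdh covariate. In the adipogenic list, 1 higher call became 0 without inflamed array 1, 2, 3 or 4 or papilloma-associated array 2 or 4 or normal array 1 or 2, and 4 lower calls became 2 without inflamed array 1 and 7 without papilloma-associated array 4. Antioxidant and detoxification genes had 7 lower and 3 higher calls among 27 (median -0.52). The extracellular enzymes Sod3 and Gpx3 rose, to 11.87, 12.56, 12.46 and 13.24 from 10.76, 10.87, 9.96 and 9.61 (2.23 ± 0.34) and to 14.0, 14.1, 14.04 and 14.11 from 12.39, 11.58, 12.96 and 12.84 (1.62 ± 0.33). Inside the cell, Mt2, a metallothionein, Gstm1, a glutathione transferase, and Cat, catalase, were lower by 1.84, 1.7 and 1.22, calls that were each lost without inflamed array 1, 2 or 4, that of Gstm1 also without papilloma-associated array 1 or normal array 1, 2 or 3, and that of Cat (chosen after its values were seen) without any array but papilloma-associated array 3 and normal array 4. Of the 10 antioxidant calls 2 were kept with the spike covariate and 3 with the Gapdh covariate. In the antioxidant list, 7 lower calls became 0 without inflamed array 1 or 2, 1 without inflamed array 4, 3 without papilloma-associated array 1 or normal array 1, 2 or 3 and 4 without inflamed array 3 or papilloma-associated array 2. Slc2a3, a glucose transporter, was lower by 1.75, one of 3 calls (2 lower) among 30 glycolysis and hypoxia genes. Of the 3 glycolysis and hypoxia calls 1 was kept with the spike covariate and 2 with the Gapdh covariate. In the glycolysis and hypoxia list, 1 higher call became 0 without inflamed array 1, 3 or 4 or papilloma-associated array 1, 2 or 3 or normal array 1, 2 or 3, and 2 lower calls became 1 without inflamed array 1 or 2 or normal array 2. Among 28 aldehyde dehydrogenase and retinoid pathway genes 2 were called higher and 2 lower (5 higher and 8 lower unadjusted; median -0.24). Rdh10 and Stra6, of the retinoid pathway, rose by 1.42 ± 0.31 and 2.03 ± 0.3, the Rdh10 call lost without inflamed array 1 or 4. Of the 4 retinoid pathway calls 1 was kept with the spike covariate and 4 with the Gapdh covariate. In the retinoid pathway list, 2 higher calls became 1 without inflamed array 1 or 4. Ribosomal protein genes had 4 lower calls and 0 higher among 27 (15 and 0 unadjusted; median -0.52). Rpl4 was the largest (12.37, 12.67, 12.86 and 12.14 against 13.37, 13.37, 13.15 and 13.44). None of the 4 calls was kept when arrays were aligned on ribosomal protein genes or with the spike covariate. That alignment removes the mean difference of these same genes by construction, so it does not test their calls. Of the 4 ribosomal protein calls 0 were kept with the spike covariate and 2 with the Gapdh covariate. In the ribosomal protein list, 4 lower calls became 1 without inflamed array 1, 2 or 4. Among 23 heat shock genes limma called 0 (8 lower and 1 higher unadjusted; median -0.50). In the heat shock list, 0 lower calls became 2 without inflamed array 3 and 4 without normal array 4. Among 30 oxidative phosphorylation genes limma called 0 (6 lower and 1 higher unadjusted; median -0.06). In the oxidative phosphorylation list, 0 lower calls became 2 without normal array 4.

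Smaller lists gave calls in both directions. Of 13 small leucine-rich proteoglycans, which coat collagen fibrils, Ecm2 was lower (5.93, 4.59, 6.6 and 4.74 against 8.24, 7.63, 7.46 and 8.34) and Bgn, biglycan, rose by 0.56 ± 0.12, a call lost without inflamed array 1 (median 0.02). Of the 2 proteoglycan calls 0 were kept with the spike covariate and 2 with the Gapdh covariate. In the proteoglycan list, 1 higher call became 0 without inflamed array 1 and 3 without papilloma-associated array 4. Of 16 complement genes Clu, the chaperone clusterin, was lower (5.94, 7.74, 6.91 and 6.92 against 9.11, 8.56, 9.91 and 8.67) and Cd59a, which blocks the membrane attack complex, rose by 1.55 ± 0.37, a call lost without inflamed array 1, 2 or 4 or papilloma-associated array 1 or 4 (median 0.07). Of the 2 complement calls 0 were kept with the spike covariate and 1 with the Gapdh covariate. In the complement list, 1 higher call became 0 without inflamed array 1, 2 or 4 or papilloma-associated array 1 or 4. Of 27 prostaglandin and phospholipase genes 4 were higher, Pla1a and Pla2g7 among them, and 3 lower (median 0.20). Of the 7 prostaglandin and phospholipase calls 3 were kept with the spike covariate and 4 with the Gapdh covariate. In the prostaglandin and phospholipase list, 3 lower calls became 1 without inflamed array 1 or 4. Of 32 genes of endoplasmic reticulum folding and secretion, Creb3l2, a factor that drives secretory capacity, rose by 1.5 ± 0.25 and Pdia5, a disulfide isomerase, by 1.47 ± 0.34, the latter call lost without inflamed array 1, 2 or 4 or papilloma-associated array 1, 2 or 3, and 0 were lower (7 higher and 2 lower unadjusted; median 0.30). Of the 2 folding and secretion calls, 6.25% of their list beside 6.71% over all genes, 1 was kept with the spike covariate and 2 with the Gapdh covariate. In the folding and secretion list, 2 higher calls became 1 without inflamed array 1, 2 or 4 or papilloma-associated array 1, 2 or 3 and 4 without inflamed array 3. Of 18 circadian genes Per2, a repressor of the clock, was lower by 1.73 and 0 were higher (7 lower and 0 higher unadjusted), with a list mean of 7.91 on inflamed array 3 and 8.87 to 8.99 on the other inflamed arrays. The circadian call, 5.56% of its list beside 6.71% over all genes, was lost with the spike covariate and kept with the Gapdh covariate. In the circadian list, 1 lower call became 7 without inflamed array 3. The other probe sets of Per2 differed by -0.033 and -0.67. Of 21 markers that separate papillary from reticular dermis 4 were higher, among them Gpx3 and Thbs1, and 1, Col23a1, lower (median 0.25); the Col23a1 call was lost without inflamed array 1, 2 or 3 or papilloma-associated array 1. Of the 5 papillary and reticular calls 3 were kept with the spike covariate and 4 with the Gapdh covariate. In the papillary and reticular list, 1 lower call became 0 without inflamed array 1, 2 or 3 or papilloma-associated array 1 and 3 without papilloma-associated array 3. Of 25 hormones and peptides 3 were higher and 0 lower (6 higher and 3 lower unadjusted; median 0.13), Tac1, Ucn2 and Stc1, the glycoprotein stanniocalcin, whose rise of 1.42 ± 0.38 was lost without any 1 inflamed array, papilloma-associated array 2 or 4 or normal array 1, 2 or 3. Of the 3 hormone and peptide calls 2 were kept with the spike covariate and 2 with the Gapdh covariate.

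Fibroblast identity and activation markers were called higher in 3 of 22 cases and lower in 0 (9 higher and 4 lower unadjusted; median 0.24). Pdpn, podoplanin, stood at 12.72, 12.7, 12.92 and 12.36 against 11.34, 11.45, 11.54 and 12.03 (1.09 ± 0.18, adjusted p = 0.00428). Dpt, dermatopontin, rose by 0.48 ± 0.13, a call lost without any array but normal array 4. Of the 3 identity and activation calls 1 was kept with the spike covariate and 1 with the Gapdh covariate. In the identity and activation list, 3 higher calls became 1 without inflamed array 1, 2 or 4, and 0 lower calls became 2 without inflamed array 3 or papilloma-associated array 3. Fap, the fibroblast activation protein often used to mark tumour stroma, read 6.07, 9.18, 9.53 and 4.06 against 9.34, 9.37, 10.61 and 9.33 and was not called (-2.46 ± 1.03, adjusted p = 0.157). Papilloma-associated arrays 1 and 4 were low and arrays 2 and 3 near the inflamed values, so the group spread was wide. Among 24 Hox genes, which record body position, Hoxc4 was the 1 called, at 9.07, 9.05, 9.19 and 8.8 against 10.22, 10.13, 10.45 and 9.97 (-1.17 ± 0.15, adjusted p = 0.000732), and 0 were higher (4 lower and 0 higher unadjusted). The Hox call, 4.17% of its list beside 6.71% over all genes, was kept with either covariate. Of the guidance genes, Sema3a, a secreted semaphorin, rose by 1.9 ± 0.34, 1 of 2 higher calls among 31 with 0 lower (6 higher and 4 lower unadjusted). Calls made up 6.45% of the guidance list, beside 6.71% over all genes. Of the 2 guidance calls 0 were kept with the spike covariate and 1 with the Gapdh covariate. In the guidance list, 2 higher calls became 1 without inflamed array 1, 2 or 4.

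The genes with the largest lower differences included surface receptors, transporters and transcription factors, and most fell from a high inflamed level to near the dim limit. Slc26a7, an anion exchanger, read 7.43, 5.22, 5.93 and 3.52 against 12.08, 12.33, 10.03 and 11.23 (-5.89 ± 0.77, adjusted p = 0.00087). Slc15a2, a peptide transporter, read 5.12, 6.71, 6.84 and 5.76 against 11.34, 11.34, 9.76 and 10.58 (-4.65 ± 0.45, adjusted p = 0.000118), though neither of its 2 other probe sets was called. Aldh3a1, an aldehyde dehydrogenase, read 6.26, 7.01, 6.15 and 5.16 against 10.66, 10.37, 9.05 and 10.71 and 12.07, 11.88, 11.4 and 11.67 in normal arrays (-4.05 ± 0.41, adjusted p = 0.000172), so the order ran from papilloma-associated over inflamed to normal. Coch, the matrix protein cochlin, read 7.45, 8.25, 8.16 and 8.02 against 11.14, 12.1, 11.61 and 11.79 (-3.69 ± 0.32, adjusted p = 5.51e-05). These last 3 with Pappa2 were the 4 of the 15 whose calls were kept with the spike covariate. With the Gapdh covariate 10 of the 15 were kept. Cd24a, a surface glycoprotein shared with epithelial cells, ranged widely at 3.59, 7.12, 10.14 and 4.46 against 12.25, 11.97, 12.89 and 11.49, where papilloma-associated array 3 stood highest; array 3 also had the highest keratinocyte level of its group (7.82), and the difference of -5.82 ± 1.23 was called on none of its 2 other probe sets. Lepr, the leptin receptor, was lower by 4.59 and Tfap2a, the factor AP-2 alpha, by 4.34. Cxcr4, the receptor of Cxcl12, and Ndnf, a secreted neurotrophic factor, were lower by 4.35 and 4.58, calls lost without inflamed array 1 or 2, and F13a1, coagulation factor XIII A, by 3.91, a call lost without inflamed array 1, 2 or 4. For Wif1, Ndnf and F13a1, normal array 4 (4.47, 5.78 and 4.88) lay with the papilloma-associated values and the other normal arrays above them.

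Markers of other cell types are to be read beside the 6.71% called over all genes. Of 23 keratinocyte, 6 neutrophil and 12 pericyte and smooth muscle markers, 4.35%, 16.7% and 50% were called. The other lists held 2 to 12 measured markers each, so 0 calls in one of them lie near the share over all genes. Beside the keratinocyte, neutrophil and pericyte lists, limma called 0 markers of macrophages, antigen-presenting cells, T cells, mast cells, endothelium, Schwann cells, melanocytes, skeletal muscle, erythrocytes and adipocytes. At an unadjusted p under 0.05, 2 mast cell and 2 skeletal muscle genes and 1 gene each of the macrophage, antigen-presenting, endothelial, erythrocyte and adipocyte lists had a higher mean, 1 macrophage and 1 melanocyte gene had a lower one, and the T cell and Schwann lists gave 0. Most of these lists averaged near the dim limit on every array, at 5.27 to 5.86 for mast cells and 5.75 to 6.43 for endothelium among them. The Schwann cell list averaged 7.52 to 8.29 on papilloma-associated and 8.33 to 8.50 on inflamed arrays (exact permutation p = 0.0286, adjusted 0.129). Csf1r, the macrophage growth factor receptor, was the brightest macrophage marker and spread over 8.79 to 10.38 and 9.08 to 11.28 without a called difference (adjusted p = 0.234), below its normal arrays at 11.58 to 11.88.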

How the data were processed

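The deposited table holds log2 expression values of 45101 probe sets on 12 arrays, as made by the authors. The submitters' processing notes name limma with no version, and how background was corrected and arrays were normalized is not given in the sources used here. Lower quartiles of the arrays differed by up to 0.28 and upper quartiles by up to 0.28, above the limit of 0.1 set for it, so arrays were quantile normalized. GEO's platform annotation gave 1 symbol for 34945 probe sets, several for 932 and none for 9160, and the other 64 were controls. 34741 probe sets with 1 symbol matched a current RefSeq gene. Each of 18193 genes was represented by 1 probe set, the one that was brightest on average across all arrays.

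Group means of 3 groups of 4 arrays were fitted with limma 3.58.1 in R 4.3.3 (lmFit, eBayes), with a two-sided test of papilloma-associated minus inflamed and Benjamini-Hochberg adjustment over all genes. The fit was tested on simulated data with known changes. Per-array measures were compared with exact permutation tests. Replicates share numbers, but deviations of same-numbered arrays correlated between -0.009 and 0.026, so the numbers were not taken as pairs.

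Genes were named by rule: the 15 largest called differences in each direction whose groups do not overlap and of which at least 1 group is not dim; up to 4 called members of each of 46 gene lists (1079 measured members), or the member with the smallest p where none is called; up to 3 called members and the brightest member of each of 13 marker lists; and Pdgfra, Col1a1, Col1a2, Col3a1, Lox, Loxl3, Fap, Acta2, Il6, Map2k1, Xist and Eif2s3y. The members, lists and rule were chosen with earlier results of these data known. Precision is limited by the number of arrays. There were 30 other settings, among them 12 that left out 1 array.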

Additional observations from a re-analysis of the deposited data

Results flagged for a closer look

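Among the genes named, 478 groups of 4 values were tested for a sample far from the others (a gap to the nearest value that takes up more of the group's range than Dixon's 95% limit for 4 samples), and 35 groups passed, of which 13 were in papilloma-associated array 4. Chance gives about 1 in 20 such groups. Papilloma-associated array 4 was far the highest of its group for Cd44 at 12.41 (others 10.55 to 10.82), Tagln at 12.63 (others 11.93 to 11.96), Itgb1 at 11.7 (others 11.29 to 11.36), Igf1 at 13.53 (others 13.32 to 13.33), Hba-a1 at 6.41 (others 5.53 to 5.64) and Phykpl at 9.5 (others 8.42 to 8.49). Papilloma-associated array 4 was far the lowest of its group for F13a1 at 4.3 (others 4.91 to 5.03), Ccl12 at 4.17 (others 7.86 to 8.53), Nfkbie at 3.85 (others 6.56 to 6.81), Ifit1 at 9.29 (others 10.21 to 10.25), Klf4 at 7.78 (others 10.31 to 10.7), Gstm1 at 7.7 (others 9.58 to 9.96) and Col1a2 at 14.51 (others 14.55 to 14.55). Inflamed array 3 was far the highest of its group for Hhip at 12.16 (others 8.61 to 9.18), Pappa at 9.64 (others 7.92 to 8.1), Fap at 10.61 (others 9.33 to 9.37) and Alx4 at 12.32 (others 9.79 to 9.9). Inflamed array 3 was far the lowest of its group for Actn1 at 7.9 (others 8.8 to 8.96), Grem1 at 7.3 (others 8.88 to 8.98), Tapbp at 10.86 (others 11.74 to 11.82) and Klf4 at 11.48 (others 12.3 to 12.45). Other papilloma-associated arrays that stood far above their group gave Krt6b on array 3 at 9.51 (others 7.92 to 8.0), Ctsa on array 1 at 11.01 (others 10.54 to 10.58) and Corin on array 2 at 6.19 (others 4.6 to 4.8). Other papilloma-associated arrays that stood far below their group gave Plxna1 on array 2 at 10.59 (others 11.03 to 11.13), S100a9 on array 1 at 6.35 (others 7.26 to 7.41), Ccn2 on array 1 at 10.07 (others 11.09 to 11.17), Wnt4 on array 3 at 8.18 (others 9.24 to 9.38) and Nrg1 on array 3 at 5.45 (others 6.24 to 6.3). Other inflamed arrays that stood far above their group gave Timp1 on array 2 at 9.68 (others 8.95 to 8.98), Ctsb on array 4 at 12.6 (others 12.18 to 12.24), Cdkn2a on array 1 at 6.62 (others 6.16 to 6.23) and Pmp22 on array 4 at 12.14 (others 11.73 to 11.79). Other inflamed arrays that stood far below their group gave Mmp10 on array 2 at 5.77 (others 5.99 to 6.01) and Slc10a1 on array 1 at 6.98 (others 7.38 to 7.42). For Ccl12 the far value of papilloma-associated array 4 lay among the inflamed values, whereas for Tagln, Igf1, Itgb1 and Cd44 that array stood farther from the inflamed group than the others did.

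Among data that the comparisons above do not use, limma called 445 of 10092 probe sets paired with several genes or none (4.41%), 146 of them higher and 299 lower in papilloma-associated fibroblasts. Of the probe sets with 1 gene it called 2073 of 34945 (5.93%).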

How the results depend on the processing

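Of the 1221 calls, 668 higher and 553 lower, none was called the opposite way under any of the 30 other settings. The count rose with the scaling on ribosomal protein genes (7392, 7067 higher and 325 lower, 953 of them among the 1221) and with array weights (2813, 1569 higher and 1244 lower). It also rose, in a setting chosen after seeing the data, without papilloma-associated array 4, normal array 4 and inflamed array 3 (2055, 1057 and 998). Each of these correlated least with the other arrays of its own group. It fell with the spike level as a covariate (306, 213 and 93), with the Gapdh 3′ minus 5′ difference as a covariate (778, 418 and 360), at a threshold of 0.01 (396, 237 and 159) and with a difference of at least 1 (809, 396 and 413). Without moderation of the variances 341 genes were lower. Leaving out 1 array gave between 578 and 1581 calls, 325 to 871 higher and 253 to 710 lower, with the lowest counts without inflamed array 1 and the highest without normal array 4. A fit with the replicate number as a block called 1039 (556 higher and 483 lower), 925 of them among the 1221; the same-numbered arrays did not deviate together. The difference in the mean of ribosomal protein genes was -0.53 as deposited and -0.50 after quantile normalization. Among 222 genes followed through the settings that measured them, 9 sign changes occurred, none of them called after the change: Ctsa (-0.074) and Rps4x (0.009) with probe sets averaged, Rarres2 (0.17) without probe sets that may cross-match, Fap (1.19), Il6 (1.98), Cat (0.061) and Eif2s3y (0.17) with the spike covariate, and Map2k1 (0.22) and Eif2s3y (0.18) with the ribosomal protein scaling. Of the 158 called genes named by rule, 57 were kept with the spike covariate, 121 with the Gapdh covariate and 109 without inflamed array 1. The cause of these changes was not tested, except that a stricter threshold gives fewer calls by construction. Fewer arrays did not always give fewer calls, since the count rose to 1581 without normal array 4. A covariate that separates the compared groups, as the spike level does, also lowers precision by construction. Alignment on ribosomal protein genes removes their own mean difference by construction. Signal near background limits the 308 called genes with a dim group.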

Other observations

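In 6 places, 3 measured genes that follow each other on a chromosome, in the order of RefSeq's table for GRCm38.p6, were all called in one direction. Maoa, Maob and Ndp on chromosome X were lower by 1.49 to 3.12 on the log2 scale, and these are the monoamine oxidases and norrin, a secreted protein that binds a Frizzled receptor. Tnmd, Tspan6 and Srpx2 on chromosome X were higher by 1.20 to 3.58, and Nyx, Cask and Gpr34 by 0.63 to 1.67. On chromosome 11, Clk4, Col23a1 and Phykpl were lower by 0.97 to 1.99, on chromosome 12 Slc10a1, Smoc1 and Slc8a3 by 1.34 to 1.70, and on chromosome 15 Basp1, Myo10 and Retreg1 were higher by 1.06 to 1.87. Each of the 6 runs had at least 1 member whose call was lost without inflamed array 1 and at least 1 whose call was lost without inflamed array 2, and leaving out other arrays also ended calls in each run. Maob, Ndp, Srpx2, Cask, Gpr34, Slc10a1, Slc8a3 and Myo10 kept their calls in each fit that left out 1 array. These runs were picked after the values were seen, and genes that no probe set measures may lie between their members.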
